A study of Mus musculus with 6 samples.

Results

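The genes described here encode the proteasome, its regulators and its assembly factors, and they were followed in the hippocampus of ovariectomised mice with and without royal jelly in the diet. Members were the protein-coding rows of the deposited table whose symbol starts with Psma to Psmg followed by a digit. This took 51 of 32067 rows, 49 of them proteasome genes and 2, Psmc3ip and Psme3ip1, genes named for binding a proteasome protein. A further 3 rows with such symbols are pseudogenes and were left out. The OVX+RJ group was 3 wild type female C57BL/6J mice that had both ovaries removed and were fed chow containing 1% royal jelly, which nurse honeybees secrete, from week 8 to week 17 of age. The OVX group was 3 mice of the same genotype, strain, sex, age and surgery on a control diet. Ovariectomy removes the main source of circulating estrogen, and every animal compared had undergone it. Each library is described in the labels as a biological replicate.

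The proteasome degrades proteins that carry chains of ubiquitin. Its 20S core is a barrel of alpha rings outside and beta rings inside, and some beta subunits carry the cutting sites. The 19S regulatory particle caps the barrel, where ATPase subunits unfold the substrate and non-ATPase subunits bind and remove ubiquitin. Interferon induces alternative beta subunits that form the immunoproteasome, which favours peptides for display on MHC class I. In neurons, proteasome activity is known to take part in the turnover of synaptic proteins and in plasticity.

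Library totals were 38487425, 39368206 and 36084588.5 estimated counts in OVX+RJ 1, 2 and 3, against 34718596.5, 58163785 and 40747748 in OVX 1, 2 and 3. Values are CPM, a gene's counts scaled by the library's total over all rows. OVX+RJ 1 had the lowest mean Pearson correlation with the other libraries, by a small margin. It was 0.983 across the genes tested on the log2 CPM scale, against 0.986 to 0.987 for the others. The summed level of 12 hippocampal neuron markers was 8278 to 9103 CPM in OVX+RJ, against 8547 to 8949 CPM in OVX, and none of the 12 was at 0. Marker sums of endothelial cells (9 genes, a sum of 185 to 209.9 in OVX+RJ against 232 to 242 in OVX) and of pericytes and smooth muscle (8 genes, 162 to 173 in OVX+RJ against 182 to 192 in OVX) did not overlap between the groups. In each of these lists 1 gene had a positive log2 fold change. Sums of 10 microglia markers did overlap, at 338 to 357 in OVX+RJ against 347 to 365 in OVX. So did those of 7 oligodendrocyte markers (3718 to 4990 in OVX+RJ against 3069 to 5082 in OVX). Sums of astrocyte, interneuron, blood and leukocyte, and choroid plexus markers (27.0 to 54.3 in OVX+RJ against 25.5 to 36.1 in OVX for the last) overlapped too. Sums of 8 immediate early genes did not, at 370 to 445 in OVX+RJ against 270 to 292 in OVX. The log2 fold change was negative at 7 of 8 astrocyte, 7 of 10 microglia and 5 of 6 tested blood and leukocyte markers, against 53.6% of all genes tested. It was positive at 7 of 7 oligodendrocyte, 5 of 6 interneuron and 5 of 6 tested choroid plexus markers, the last with a median of 0.998. Hippocampal neuron markers had 6 in each direction. The part of cell composition in the values below was not tested, and in whole tissue fewer cells of a type and less RNA per cell cannot be told apart.

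No proteasome gene passed the test between OVX+RJ and OVX. Of the 51 members 49 passed the filter on low counts, and 0 of them were called at a Benjamini-Hochberg adjusted p under 0.05, from edgeR's quasi-likelihood fit to the 18629 genes tested. In that test 0% of all genes were called, and the lowest adjusted p of a member was 0.983. At an unadjusted p under 0.05 there were 0 members in either direction, against 4.03% of all genes tested (1.83% higher and 2.2% lower in OVX+RJ), or 750 genes. DESeq2 also called 0 members at an adjusted p of 0.05, where 0.0644% of all genes, 12 in number, were called, and at an unadjusted p under 0.05 it had 0 members, against 3.7% of all genes. With TMM factors edgeR gave 0 members at an unadjusted p under 0.05, against 4.05% of all genes. The log2 fold change was positive at 24 members and negative at 25, and it ran from -0.23 to 0.15. Of all genes 53.6% were negative. With TMM factors 23 members were negative, against 50.4% of all genes. Its median over the members was -2.1e-06, and its median over all genes tested was -0.012. At 4 members the OVX+RJ and OVX ranges were separate (Psmd1 higher in OVX+RJ, Psmg1, Psmg2 and Psme2b lower), or 8.16% of those tested, against 10.5% of all genes tested (4.53% higher and 5.95% lower in OVX+RJ). All members together took 3127, 2979 and 2984 CPM in OVX+RJ 1, 2 and 3, and 2942, 3071 and 3013 CPM in OVX 1, 2 and 3. These are 0.313%, 0.298% and 0.298% of the counts in OVX+RJ, and 0.294%, 0.307% and 0.301% in OVX, so the sums of the groups overlapped.

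The precision of the test differed between the abundant subunits and the scarce ones. The members include 31 subunits of the constitutive 26S proteasome (14 of the 20S core and 17 of the 19S particle). The 19S subunits Adrm1 and Sem1 are outside the symbol rule and not among the 31. For these 31 members the 95% intervals of the log2 fold change from limma lay between -0.27 and 0.24, which corresponds to changes from -17.2% to 18.5%. A larger change in either direction lies outside the interval of each of these 31 genes. Over all 49 tested members the intervals reached from -0.97 to 0.54, both bounds belonging to Psmb9. The interval of each tested member held 0.

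**Figure D1:**
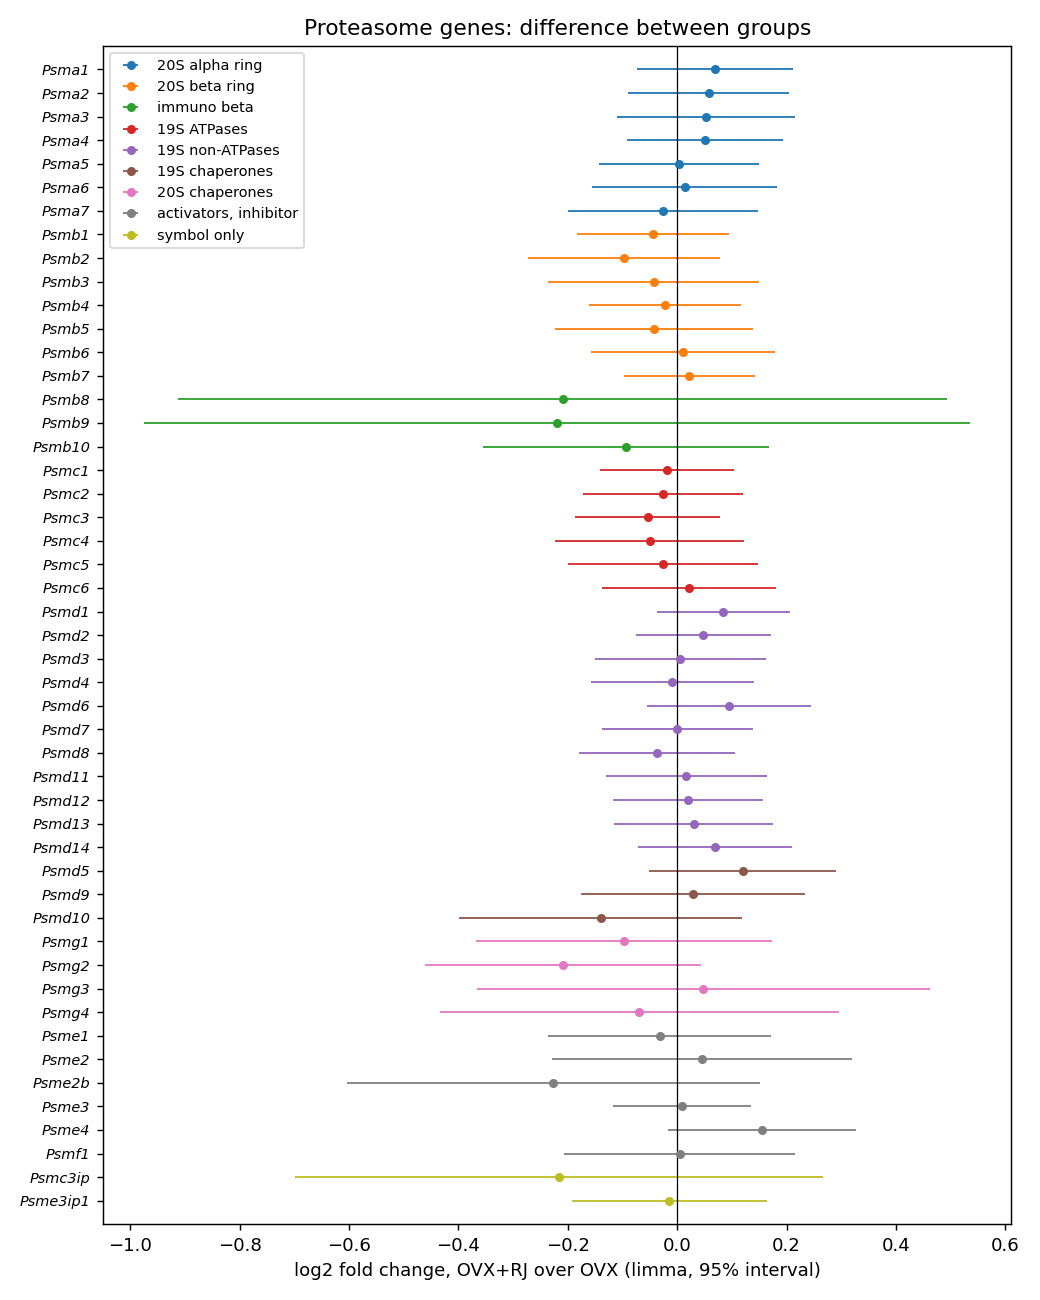
The horizontal axis is the log2 fold change of OVX+RJ over OVX from limma, with its 95% interval as a bar, for the 49 tested members listed down the page by role (n = 3 libraries each). Every bar crosses 0, and those of Psmb8 and Psmb9 are the widest.

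The alpha ring forms the gated entrance of the 20S core. Of its 7 tested genes 6 had log2 fold changes on the positive side of 0 (median 0.051), and 0 were called. Psma1 was 69.9, 68.2 and 64.2 CPM in OVX+RJ 1, 2 and 3, against 63.7, 64.0 and 65.1 CPM in OVX 1, 2 and 3. OVX+RJ 3 lay inside the OVX range, and the log2 fold change was 0.070 (SE 0.065, edgeR adjusted p 0.983). Psma2 was 78.1, 69.95 and 72.3 CPM in OVX+RJ, against 69.5, 72.2 and 69.8 CPM in OVX (log2 fold change 0.059, SE 0.067). Psma4 was 72.9, 69.8 and 67.2 CPM in OVX+RJ, against 65.9, 67.6 and 69.0 CPM in OVX (log2 fold change 0.051, SE 0.064). In all 3 genes OVX+RJ 1 held the highest value and the groups overlapped. Without OVX+RJ 1 the log2 fold changes were 0.043 for Psma1, 0.012 for Psma2 and 0.021 for Psma4. The other tested alpha genes, Psma3, Psma5, Psma6 and Psma7, had mean CPM of 59.9 to 68.8 in OVX+RJ against 60.8 to 68.0 in OVX, with log2 fold changes from -0.022 to 0.053. Psma8, an alpha subunit known from mouse testis, had 9, 22 and 7 counts in OVX+RJ and 8, 14 and 7 counts in OVX, too few to test.

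The constitutive beta ring holds the cutting sites in Psmb5 (chymotrypsin-like), Psmb6 (caspase-like) and Psmb7 (trypsin-like). Of its 7 genes 5 had log2 fold changes on the negative side of 0 (median -0.037), and 0 were called. Psmb5 was 83.0, 79.1 and 72.0 CPM in OVX+RJ, against 72.6, 84.2 and 84.5 CPM in OVX (log2 fold change -0.044, SE 0.082). Its lowest values were OVX+RJ 3 and OVX 1, and the groups overlapped. Psmb6 was 60.1, 58.4 and 53.6 CPM in OVX+RJ, against 53.9, 60.8 and 56.2 CPM in OVX (log2 fold change 0.010, SE 0.076). Psmb7 was 111, 113 and 113 CPM in OVX+RJ, against 109, 112 and 109.9 CPM in OVX (log2 fold change 0.022, SE 0.054). Both genes overlapped between the groups, and all 6 values of Psmb7 lay close together. Psmb2, a beta subunit without a cutting site, was 33.4, 33.7 and 30.9 CPM in OVX+RJ, against 34.5, 36.7 and 33.6 CPM in OVX. Its log2 fold change of -0.098 (SE 0.080) was the largest in size of the constitutive beta genes, at an edgeR adjusted p of 0.983, and the groups overlapped by OVX+RJ 2 and OVX 3 alone. Psmb1, likewise without a cutting site, was 89.7, 89.3 and 90.7 CPM in OVX+RJ, against 88.6, 91.0 and 98.7 CPM in OVX (log2 fold change -0.045, SE 0.063). The remaining genes of the ring, Psmb3 and Psmb4, had log2 fold changes of -0.037 and -0.024.

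Psmb8, Psmb9 and Psmb10 are the interferon-inducible subunits that replace Psmb5, Psmb6 and Psmb7. The windows of 250 bases before the start of the first constitutive and inducible pairs are shown because the genes of each pair encode alternatives for the same place in the core and differ widely in level. They come from RefSeq promoters on GRCm38.p6, another build than the GRCm39 named for the libraries, and lie at chr14:54617996-54618245 (minus strand) for Psmb5, chr17:34197945-34198194 (plus strand) for Psmb8, chr11:70525107-70525356 (plus strand) for Psmb6 and chr17:34187331-34187580 (minus strand) for Psmb9. Each is written 5′ to 3′ along the gene, and capitals mark matches on either strand to TGACNNNGC, the core of the antioxidant response element that the factor Nfe2l1 is known to bind, or to the core of interferon response elements, searched as GAAA on both sides of any 2 bases.
Psmb5: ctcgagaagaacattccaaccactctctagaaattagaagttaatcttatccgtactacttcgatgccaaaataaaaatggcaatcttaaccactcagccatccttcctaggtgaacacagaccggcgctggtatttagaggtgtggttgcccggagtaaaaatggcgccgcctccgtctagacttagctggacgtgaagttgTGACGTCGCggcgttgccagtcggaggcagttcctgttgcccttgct
Psmb8: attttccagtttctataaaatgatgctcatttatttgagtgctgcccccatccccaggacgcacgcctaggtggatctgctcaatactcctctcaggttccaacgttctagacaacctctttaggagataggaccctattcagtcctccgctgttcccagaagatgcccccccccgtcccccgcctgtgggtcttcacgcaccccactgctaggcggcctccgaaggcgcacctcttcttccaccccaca
Psmb6: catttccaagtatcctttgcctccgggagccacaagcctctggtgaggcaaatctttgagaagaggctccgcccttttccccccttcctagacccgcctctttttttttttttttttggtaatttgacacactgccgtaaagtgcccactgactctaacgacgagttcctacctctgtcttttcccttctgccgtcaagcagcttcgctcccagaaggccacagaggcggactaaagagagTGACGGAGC
Psmb9: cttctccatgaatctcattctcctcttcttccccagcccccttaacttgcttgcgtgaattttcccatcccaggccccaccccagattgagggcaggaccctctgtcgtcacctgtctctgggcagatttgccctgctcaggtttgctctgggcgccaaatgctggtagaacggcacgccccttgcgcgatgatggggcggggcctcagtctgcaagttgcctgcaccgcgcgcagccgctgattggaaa
The antioxidant core is at 47 bases before the start in Psmb5 and at 9 bases before it in Psmb6, and neither set of letters is in the other windows shown. Windows of 300 bases, from 250 before to 50 after a start, were found for 43 of the 51 members. These genes have 47 windows, of which 6, or 12.8%, hold the antioxidant core (Psmb5, Psmb6, Psmc6, Psmd9, Psmd12 and Psme4), against 12.4% of all 32851 windows of the table. The interferon core is in 5 of the 47, or 10.6% (Psmb3, Psmd4, Psmd9, Psme1 and Psmg4), against 3.44% of all windows. A gene with several starts counts once per window, and the letters are a description, not evidence of binding.

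Of the inducible subunits, Psmb8 and Psmb9 had few counts and Psmb10 more. Psmb8 was 2.08, 3.15 and 1.25 CPM in OVX+RJ, against 2.74, 1.93 and 2.43 CPM in OVX, from 45 to 124 counts a library. Its highest and lowest values were both in OVX+RJ, and the log2 fold change was -0.12 (SE 0.32). Psmb9 was 1.14, 1.17 and 0.637 CPM in OVX+RJ, against 0.979, 1.55 and 0.908 CPM in OVX (log2 fold change -0.23, SE 0.34). Psmb10 was 14.5, 14.4 and 15.8 CPM in OVX+RJ, against 17.3, 17.0 and 13.7 CPM in OVX (log2 fold change -0.10, SE 0.12). The log2 fold change of Psmb10 was -0.20 without OVX 3, its lowest library, and -0.043 without OVX 1, its highest. The groups overlapped at each of the 3 genes, 0 were called, and the adjusted p of Psmb8, Psmb9 and Psmb10 was 0.987, 0.983 and 0.983 in edgeR. Per kilobase of exon, Psmb8 stood at 0.728% ± 0.304 of Psmb5 in OVX+RJ and 0.792% ± 0.199 in OVX (SD, n = 3 each). Psmb9 stood at 0.868% ± 0.227 of Psmb6 in OVX+RJ and 1.02% ± 0.251 in OVX. Psmb10 reached 26.7% ± 1.34 of Psmb7 in OVX+RJ and 29.0% ± 3.56 in OVX. Thus Psmb10 was the most abundant of the 3 against its counterpart in both groups. The percentages depend on the length used. With the longest transcript as its length, Psmb8 was 1.13 CPM per kilobase in OVX+RJ and 1.24 in OVX. By exon length it was 0.638 and 0.699, while Psmb5 was the same by both lengths. By longest transcript Psmb8 stood higher against Psmb5 than Psmb9 against Psmb6, the reverse of the order above, and Psmb10 was still the highest. Psmb11, the subunit of the thymus, had 4, 7 and 8 counts in OVX+RJ and 9, 13 and 0 counts in OVX. The 0 in OVX 3 allows a level of up to 0.0736 CPM.

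**Figure D2:**
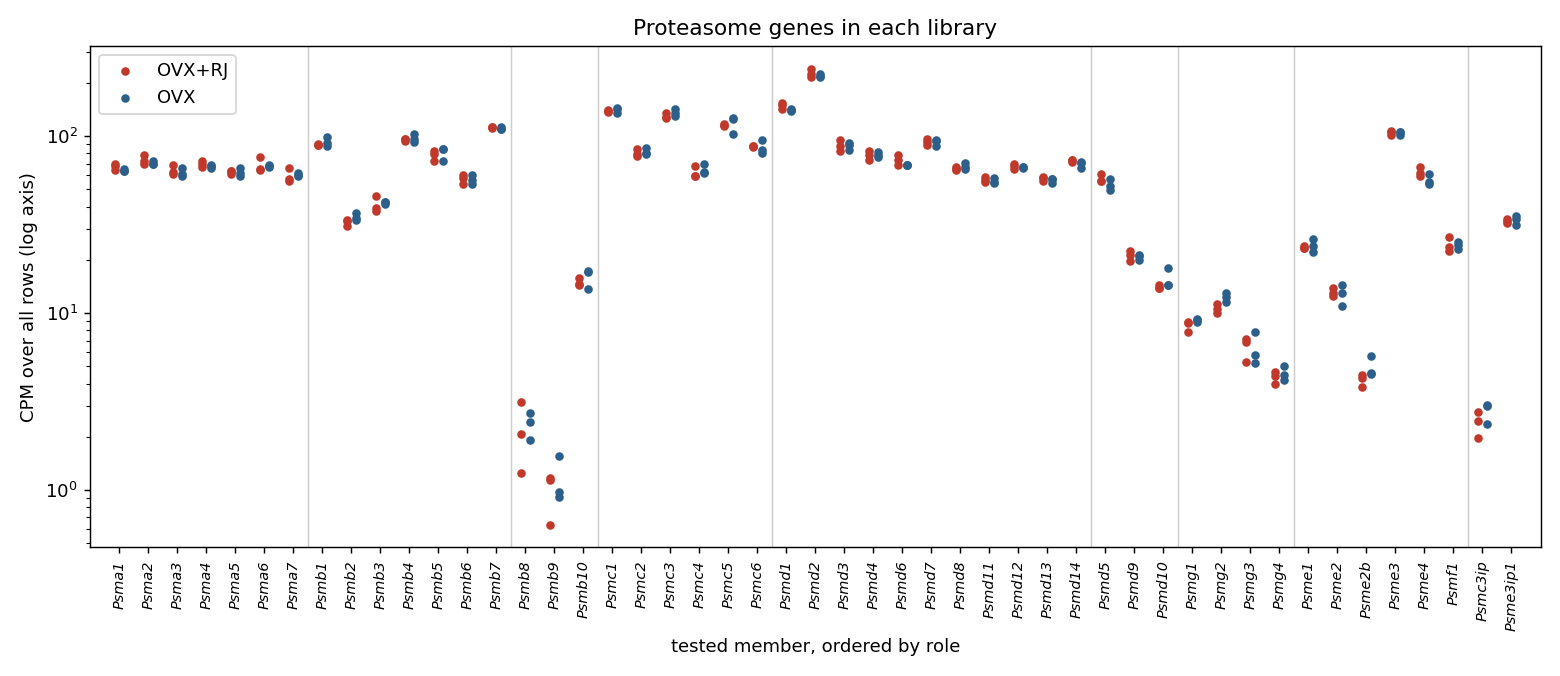
The vertical axis is CPM over all rows on a log axis for the 49 tested members, ordered by role along the horizontal axis, with each point 1 library (OVX+RJ left of OVX). Psmb8 and Psmb9 lie between 0.637 and 3.15 CPM, and the OVX+RJ and OVX points are apart at 4 genes only.

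The 19S ATPases unfold the substrate. Of the 6 genes 5 had log2 fold changes on the negative side of 0 (median -0.029), and 0 were called. Psmc3 was 136, 129 and 128 CPM in OVX+RJ, against 129.7, 143 and 135 CPM in OVX (log2 fold change -0.055, SE 0.060), and without OVX 2, its highest library, the log2 fold change was -0.018. Psmc4 was 67.9, 59.8 and 59.7 CPM in OVX+RJ, against 62.2, 69.3 and 62.5 CPM in OVX (log2 fold change -0.050, SE 0.078). Psmc5 was 117, 115 and 116 CPM in OVX+RJ, against 103, 126 and 126 CPM in OVX (log2 fold change -0.033, SE 0.079). OVX 1 was the lowest of the 6 libraries at Psmc5, and without it the log2 fold change was -0.12. Psmc1, Psmc2 and Psmc6 had log2 fold changes of -0.020, -0.025 and 0.019.

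Among the 11 non-ATPase subunits 8 had log2 fold changes on the positive side of 0 (median 0.020), and 0 were called. With the factors of TMM, DESeq2 or the upper quartile in place of plain library totals, 10 of the 11 were positive. Psmd1, a large scaffold of the 19S base, was 154, 143 and 149.7 CPM in OVX+RJ, against 141, 142 and 139 CPM in OVX. Its groups did not overlap, and the log2 fold change was 0.085 (SE 0.055, edgeR adjusted p 0.983). Psmd6, a lid subunit, was 78.1, 68.5 and 73.6 CPM in OVX+RJ, against 69.0, 68.4 and 68.5 CPM in OVX. Its log2 fold change of 0.096 (SE 0.068) fell to 0.050 without OVX+RJ 1. Psmd14, the lid enzyme that removes ubiquitin from substrates, was 73.9, 73.6 and 71.9 CPM in OVX+RJ, against 72.0, 71.0 and 66.2 CPM in OVX (log2 fold change 0.069, SE 0.064). The groups overlapped at Psmd6 and narrowly at Psmd14. Psmd2, the other large scaffold of the base, had a mean CPM of 227 ± 12.3 in OVX+RJ against 219.9 ± 4.24 in OVX (SD, n = 3 each). Psmd4, a ubiquitin receptor, had a mean CPM of 78.4 ± 4.56 in OVX+RJ against 78.8 ± 2.87 in OVX. The other 6 genes of this group had log2 fold changes from -0.038 to 0.030.

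The chaperones that build the complex went in different directions, with 0 called of 7. Psmg1 and Psmg2 form the pair that starts the alpha ring, and both were lower in every OVX+RJ library than in any OVX library. Psmg2 was 9.98, 11.3 and 10.6 CPM in OVX+RJ, against 11.5, 12.96 and 12.4 CPM in OVX (log2 fold change -0.21, SE 0.11, 95% interval -0.46 to 0.044). Psmg1 was 7.82, 8.89 and 8.81 CPM in OVX+RJ, against 9.27, 9.10 and 8.91 CPM in OVX (log2 fold change -0.096, SE 0.12), and without OVX+RJ 1, its lowest library, the log2 fold change was -0.039. Neither passed the test, at unadjusted p values of 0.0987 for Psmg2 and 0.463 for Psmg1 and an edgeR adjusted p of 0.983 for each. Psmg4 was 4.39, 4.67 and 3.99 CPM in OVX+RJ, against 4.18, 4.49 and 5.06 CPM in OVX, with a log2 fold change of -0.072 (SE 0.17). Psmg3 had a log2 fold change of 0.044, and the groups overlapped at both. Of the chaperones of the 19S base, Psmd5 was 61.1, 55.8 and 56.0 CPM in OVX+RJ, against 49.6, 57.1 and 52.5 CPM in OVX (log2 fold change 0.12, SE 0.077). Psmd10 was 13.8, 14.4 and 13.9 CPM in OVX+RJ, against 14.4, 14.3 and 18.0 CPM in OVX (log2 fold change -0.15, SE 0.12), and without OVX 3, its highest library, it was -0.031. Psmd9 was 22.6, 21.4 and 19.7 CPM in OVX+RJ, against 20.1, 21.3 and 21.0 CPM in OVX (log2 fold change 0.030, SE 0.093).

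Activators dock on the core in place of the 19S particle, and the member with the lowest p was among them. Psme4, whose product is a nuclear activator linked to degradation of acetylated histones, was 67.2, 59.4 and 61.9 CPM in OVX+RJ, against 53.6, 55.0 and 60.9 CPM in OVX. OVX+RJ 2 lay below OVX 3, so the groups overlapped. The log2 fold change was 0.15 (SE 0.078, 95% interval -0.017 to 0.33), with an unadjusted p of 0.0727 and an edgeR adjusted p of 0.983. It was the only member under an unadjusted p of 0.05 in edgeR's fit with a library left out. With all 6 libraries 4.03% of all genes tested were under that level. The log2 fold change of Psme4 was 0.21 without OVX 3 (edgeR adjusted p 0.991, unadjusted p 0.0330) and 0.19 without OVX+RJ 2 (edgeR adjusted p 0.813, unadjusted p 0.0493). Over the other left-out libraries it ran from 0.10, without OVX+RJ 1, to 0.16. Psme1 and Psme2 form the interferon-inducible activator. Psme1 was 23.4, 24.1 and 23.4 CPM in OVX+RJ, against 24.0, 26.4 and 22.2 CPM in OVX (log2 fold change -0.036, SE 0.092). Psme2 was 12.6, 13.8 and 13.1 CPM in OVX+RJ, against 13.05, 11 and 14.4 CPM in OVX (log2 fold change 0.041, SE 0.12). Both overlapped between the groups. Psme2b, a near copy of Psme2 whose reads may be split with it, was 4.47, 3.84 and 4.32 CPM in OVX+RJ, against 5.76, 4.54 and 4.56 CPM in OVX, lower in every OVX+RJ library (log2 fold change -0.23, SE 0.17, edgeR adjusted p 0.983). Without OVX 1, its highest library, the log2 fold change of Psme2b was -0.11. Psme3, a nuclear activator, and Psmf1, an inhibitor of the core, had log2 fold changes of 0.0084 and 0.0077. The genes named for binding a proteasome protein are Psmc3ip and Psme3ip1. Psmc3ip, which acts in meiotic recombination, was 1.97, 2.46 and 2.77 CPM in OVX+RJ, against 2.36, 2.99 and 3.02 CPM in OVX. Psme3ip1 was 34.0, 32.4 and 33.4 CPM in OVX+RJ, against 33.9, 35.6 and 31.4 CPM in OVX. Both overlapped between the groups, with log2 fold changes of -0.22 and -0.016.

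Levels of different subunits can be compared only per length. Per kilobase of exon, the 31 constitutive subunits ran from 8.82 CPM for Psmd11 to 88.2 CPM for Psmb5 as means over all libraries, a range of 9.995-fold with a median of 25.4. With the longest transcript of each gene as its length the range was 4.66-fold, from 18.9 to 88.2 CPM per kilobase. The 14 core genes spanned 5.43-fold by exon length and 3.97-fold by longest transcript, and the 17 genes of the 19S particle spanned 9.53-fold and 4.65-fold. The spread between libraries was small beside this: Psmb5 was 86.8 ± 6.23 CPM per kilobase in OVX+RJ and 89.5 ± 7.57 in OVX, and Psmd11 was 8.87 ± 0.273 in OVX+RJ and 8.77 ± 0.279 in OVX (SD, n = 3 each). Over the 6 libraries the coefficient of variation in CPM had a median of 4.18% in the 31 subunits, against 6.38% in the 7852 tested genes at 20 CPM or more.

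**Figure D3:**
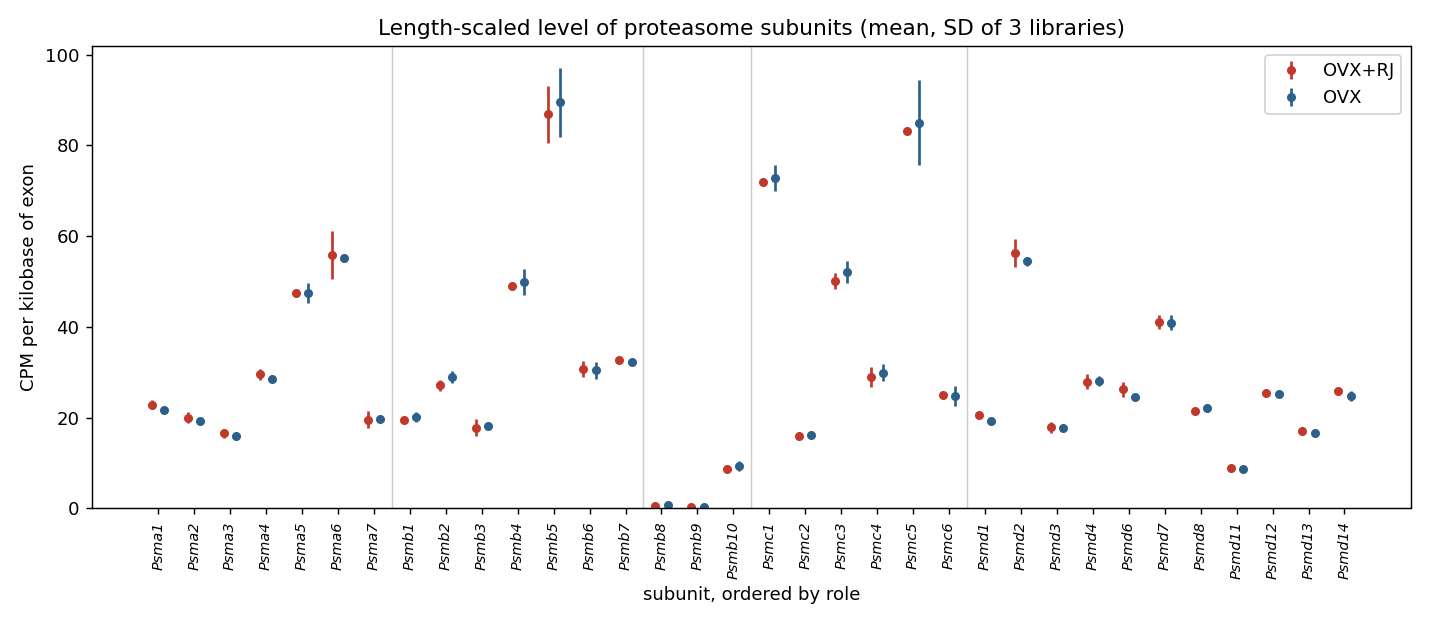
The vertical axis is CPM per kilobase of exon, as the mean with the SD of 3 libraries, for the core and 19S subunits ordered by role along the horizontal axis (OVX+RJ left of OVX). Psmb5 and Psmc5 are the highest, Psmb8 and Psmb9 are near 0, and the difference between groups at each subunit is small beside the range between subunits.

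The average level of the 31 constitutive subunits among the members varied little between libraries. Their mean log2 CPM, relative to the mean of the 6 libraries, stood at 0.052, -0.020 and -0.023 in OVX+RJ 1, 2 and 3. In OVX 1, 2 and 3 it stood at -0.036, 0.027 and 0.00077. The groups overlapped, and OVX+RJ 1 was the highest library. Of the 49 tested members 17 were highest in OVX+RJ 1, 6 in OVX+RJ 2 and 1 in OVX+RJ 3, against 4 in OVX 1, 12 in OVX 2 and 9 in OVX 3. The lowest value was in OVX+RJ 1 at 4 members, in OVX+RJ 2 at 8 and in OVX+RJ 3 at 12, against 13 in OVX 1, 4 in OVX 2 and 8 in OVX 3. Each group thus held a library that was often the highest and one that was often the lowest. Without OVX+RJ 1 the median log2 fold change of the tested members was -0.030, with 31 of 49 negative and 0 called, and that of the 31 constitutive subunits was -0.023. The share of all genes that were highest or lowest in each library, or negative without OVX+RJ 1, is not given here. Whether these counts are particular to the members was not tested.

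The inducible subunits were more variable between libraries than the constitutive ones, as were other scarce members. The coefficient of variation was 29.5% for Psmb8, 28.6% for Psmb9 and 9.57% for Psmb10. It was 16.7% for Psmg3, 15.6% for Psmc3ip and 13.9% for Psme2b, and at most 7.23% in the constitutive subunits. The unweighted mean log2 CPM of Psmb8, Psmb9 and Psmb10, relative to the mean of the 6 libraries, was -7.9e-05, 0.20 and -0.46 in OVX+RJ 1, 2 and 3, against 0.14, 0.18 and -0.061 in OVX 1, 2 and 3. For 13 genes of MHC class I antigen processing and interferon response it was 0.053, 0.13 and -0.21 in OVX+RJ, against -0.00048, 0.14 and -0.12 in OVX. On this scale both sets were lowest in OVX+RJ 3 and next lowest in OVX 3, which was noticed after the values were seen and has no test. The order of the inducible set depended on the measure. Its summed CPM, with Psmb11 included, was 17.8, 18.9 and 17.9 in OVX+RJ, against 21.3, 20.7 and 17.03 in OVX, so that OVX 3 and not OVX+RJ 3 was the lowest library. The low mean of OVX+RJ 3 came from Psmb8 and Psmb9, with 45 and 23 counts there, while Psmb10 was at its highest within OVX+RJ in that library. Within that list 0 of 13 genes were called in either direction, with a median log2 fold change of -0.0014. Erap1, which trims peptides for MHC class I, was 10.5, 9.75 and 11.7 CPM in OVX+RJ, against 9.91, 10.4 and 9.13 CPM in OVX. The groups overlapped, with a log2 fold change of 0.12.

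**Figure D4:**
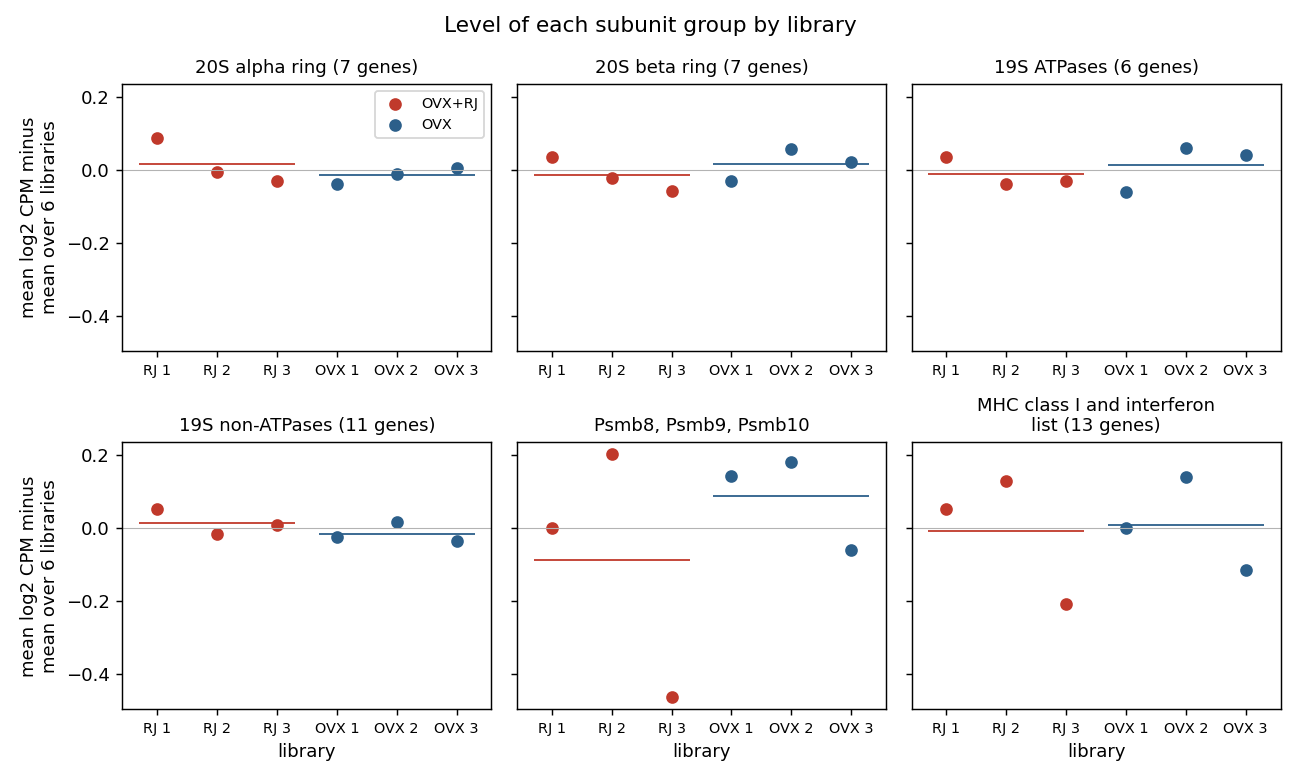
Each panel plots, by library (OVX+RJ left of OVX), the mean log2 CPM of a gene group minus its mean over the 6 libraries, with a line at each group's mean. The 4 constitutive groups stay within 0.1 of 0, and the panels of Psmb8, Psmb9 and Psmb10 and of the MHC class I list are both lowest in OVX+RJ 3 on this scale.

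Genes that work with the proteasome without carrying its symbol were also without a call. Of 15 tested partners, which include the core assembly factor Pomp, the ubiquitin receptor Adrm1 and shuttle proteins, 6 lay above 0 on the log2 fold change scale and 9 below it (median -0.013), with 0 called. Usp14, a deubiquitinase bound to the 19S particle, was 175, 165 and 170.5 CPM in OVX+RJ, against 164, 157 and 160.5 CPM in OVX, and its groups did not overlap (log2 fold change 0.085, SE 0.053, edgeR adjusted p 0.983). Ubqln4, a shuttle protein, was 92.0, 90.9 and 91.0 CPM in OVX+RJ, against 92.3, 101 and 97.9 CPM in OVX, with a log2 fold change of -0.091 (SE 0.061) and no overlap. Nfe2l1, the transcription factor that raises subunit genes when the proteasome is inhibited, was 288, 281 and 295 CPM in OVX+RJ, against 292, 299 and 268 CPM in OVX (log2 fold change 0.0075). This gene was named for its role and not by its p. In its list of 9 control genes 0 were called, with a median of 0.0075, and the lowest p values belonged to its small Maf partners. Maff was 2.65, 0.889 and 1.08 CPM in OVX+RJ, against 0.634, 0.928 and 0.883 CPM in OVX, and Mafk was 18.6, 12.0 and 13.7 CPM in OVX+RJ, against 12.2, 12.5 and 12.6 CPM in OVX. OVX+RJ 1 was the highest library of both, and the groups overlapped, with log2 fold changes of 0.91 (SE 0.40) for Maff and 0.25 (SE 0.15) for Mafk.

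Rps27a encodes ubiquitin fused to a ribosomal protein, and Ubb encodes it as repeats. Rps27a was 26.4, 35.6 and 27.8 CPM in OVX+RJ, against 73.6, 54.9 and 38.2 CPM in OVX, lower in each OVX+RJ library, at a log2 fold change of -0.89 (SE 0.20) and an edgeR adjusted p of 0.983. It has processed pseudogenes, so its counts are uncertain, and its OVX libraries differed widely. Ubb was called in neither direction, with a log2 fold change of -0.029, and was named for its role and not by its p.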

How the data were processed

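Hippocampal poly(A) RNA was sequenced with a directional kit, per the labels' protocols. The submitters' processing notes name GRCm39 and the tools StringTie 2.2.1, HISAT2 2.2.1, fastp 0.23.4 and bcl2fastq 2.19, without the role of each. Strandedness in counting and the treatment of multi-mapping reads are not stated in those sources, so near copies, pseudogenes and overlapping genes may share counts. Psma5-ps, the largest of the 3 pseudogene rows, had 129, 192 and 132 counts in OVX+RJ, against 85, 169 and 85 in OVX, and its CPM was higher in each OVX+RJ library (log2 fold change 0.67, edgeR unadjusted p 0.0118, adjusted p 0.983). Whether it shares counts with Psma5 was not tested. The deposited table holds the authors' expected counts per gene symbol, not scaled between libraries. Values at 51 of 32067 features were not whole and were rounded, upwards where midway.

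The fit used edgeR 4.0.16 under R 4.3.3 (filterByExpr, estimateDisp, glmQLFit, glmQLFTest), with library totals over all rows and no further factor, and Benjamini-Hochberg adjustment over 18629 genes. TMM factors, used as an alternative, ran from 0.978 to 1.01. Standard errors and 95% intervals are limma 3.58.1's, at a prior count of 2 on the log2 scale, while log2 fold changes in the text are edgeR's. The edgeR, limma-voom and DESeq2 tests ran on simulated data first, in their plain settings. The limma fit that gave the standard errors and intervals did not. Depth was 34718596.5 to 58163785 counts a library. P values set the difference between the groups against the spread between libraries, which edgeR estimates with information shared across genes.

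Other alternatives were DESeq2 1.42.0, limma-voom, DESeq2 size factors, upper quartile factors, robust empirical Bayes estimation, a filter of at least 1 count in total or a mean of at least 50 counts, a term for the replicate number, and each library left out. Exon lengths came from GENCODE M21 by symbol for 50 of 51 members. Named members were, per role, the 3 with the lowest unadjusted p, and the constitutive and inducible pairs with Psme1 and Psme2, and in each list outside the module the 2 with the lowest p. Psme3ip1 was added to its role after its row was seen. The members and lists were chosen with earlier results of these data known. Some genes of the lists outside the module are not reported here.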

Additional observations from a re-analysis of the deposited data

How the results depend on the processing

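No member was called at an adjusted p of 0.05 under any of the 15 alternatives. Over all genes, edgeR's 0 calls became 12 with DESeq2, 1 with a replicate block, and 0 to 8 with a library left out. Over the left-out libraries 0 to 1 members were at an unadjusted p under 0.05. Of all genes tested 4.03% were there with all 6 libraries, and the share in each left-out fit is not given here. The median log2 fold change of members over the left-out libraries ran from -0.030 to 0.016, lowest without OVX+RJ 1. These medians moved with fewer samples, and the cause was not tested. Same-numbered libraries did not deviate together, with correlations of 0.046, -0.0023 and 0.0032 across genes. With so few libraries these values cannot show whether the replicate numbers mark a pairing. Under the replicate block 0 members were called. The plain totals put 53.6% of all genes below 0, against 50.4% with TMM factors, which moved the median of members to 0.011. Of 29 named members 12 changed sign when some library was left out. Their log2 fold changes then ran from -0.077 to 0.0013 (Psmb1), -0.11 to 0.011 (Psmb5), -0.028 to 0.060 (Psmb6), -0.50 to 0.15 (Psmb8), -0.37 to 0.063 (Psmb9), -0.11 to 0.0033 (Psmc4), -0.12 to 0.014 (Psmc5), -0.015 to 0.081 (Psmd9), -0.094 to 0.031 (Psme1), -0.060 to 0.13 (Psme2), -0.064 to 0.028 (Psme3ip1) and -0.13 to 0.0056 (Psmg4). Without a change of sign, a left-out library moved other named members by over 1.5 times. Their log2 fold changes ran from 0.043 to 0.10 (Psma1), 0.012 to 0.093 (Psma2), 0.021 to 0.079 (Psma4), -0.12 to -0.060 (Psmb2), 0.014 to 0.034 (Psmb7), -0.20 to -0.043 (Psmb10), -0.087 to -0.018 (Psmc3), -0.33 to -0.097 (Psmc3ip), 0.071 to 0.17 (Psmd5), 0.050 to 0.14 (Psmd6), -0.21 to -0.031 (Psmd10), 0.033 to 0.092 (Psmd14), -0.29 to -0.11 (Psme2b) and -0.13 to -0.039 (Psmg1). The 95% intervals of Psmb8 and Psmb9 were the widest of the members, and what limits them was not tested.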
